A study of Drosophila melanogaster with 12 samples.

Results

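Transcripts of the oxidative phosphorylation system were followed in heads of adult *y w* flies over a day with a temperature cycle and the next day without it. Members are genes whose current symbol, read from a probe set with a single annotated gene, starts with ND-, Sdh, UQCR-, COX or ATPsyn, or is Cyt-c1 or Cyt-c-p. This gave 68 of the 10844 genes with such a probe set, on 70 probe sets, and the probe set with the highest mean over 12 arrays stood for each gene. Of the 68, 65 passed a filter on low values (kept when more than 6 of the 12 values exceeded the 20th percentile of their array): 31 of complex I, 5 of 7 of complex II, 5 of complex III, 10 of 11 of complex IV and 14 of complex V. A further 25 genes that fit the rule, among them Cyt-c-p, SdhA, UQCR-C1, UQCR-C2, ND-49 and the mitochondrially encoded COX1, COX2 and COX3, were not analysed here.

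All flies were *y w*, a strain with pale body and eyes that served the study as wild type, and all were kept in darkness. They developed at 25 °C until early pupal stages and then lived in 12 h of 18 °C and 12 h of 25 °C per day. After eclosion the adults stayed in this cycle for some days, and the CA day was the last of them. The CA cryophase group holds 3 arrays at 18 °C (CA2, CA6 and CA10, named by hours after cold onset), and the CA thermophase group 3 arrays at 25 °C (CA14, CA18 and CA22). The AA subjective cryophase group (AA2, AA6 and AA10) and the AA subjective thermophase group (AA14, AA18 and AA22) cover the matched hours of the following day, all at 25 °C. Each array carries RNA from a pool of frozen heads isolated on sieves, the sex of the flies is not given in the sources used here, and there is 1 array per time point. The spread behind the p of a comparison of groups is therefore the spread over 3 times of day, and CA and AA also differ in day. In fits of a 24-h cosine, or with time of day as a block, it is the spread left around the fit. The values are RMA expression values, read as log2 because of the range they cover, and the medians of the 12 arrays lay between 5.56 and 5.6.

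Complexes I to IV form the respiratory chain of the inner mitochondrial membrane. Complex I takes electrons from NADH and complex II from succinate, complex III passes them to cytochrome c, and complex IV hands them to oxygen. Complexes I, III and IV pump protons, and complex V, the ATP synthase, uses the proton gradient to make ATP. Neurons and photoreceptors of the fly head depend heavily on this supply, as does muscle, and *Drosophila* carries second copies of many subunit genes, several of which are known to be expressed mainly in testis. Such copies have the suffix L in their symbol, and 17 members are L paralogs, 14 of them past the filter.

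Sieved heads can hold fragments of other tissues, and whether these did was not tested. Transcripts listed as markers of such tissues differed between arrays, and their values are given before any result on the members. Head transcripts were present on all arrays, with 13 photoreceptor markers (Arr2, an arrestin, at 12.12 to 12.79 on the CA arrays) and 8 neuronal markers past the filter. Markers of body tissues were highest on CA18 and lowest on CA10. The median deviation of 13 testis markers from their own 12-array means lay between -1.67 and 0.030 in CA cryophase and between -0.069 and 1.39 in CA thermophase, and that of 14 muscle markers between -0.48 and 0.078 in CA cryophase and between -0.10 and 0.48 in CA thermophase. On AA arrays the testis list spanned -0.46 to -0.27 in subjective cryophase and -0.72 to 0.74 in subjective thermophase. Photoreceptor markers ran the other way, at 0.071 to 0.22 in CA cryophase and -0.47 to 0.11 in CA thermophase.

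Within the thermocycle, most oxidative phosphorylation genes had a slightly lower mean at 18 °C than at 25 °C, but no single gene passed the test. Of the 65 members, 58 had a lower mean in CA cryophase than in CA thermophase and 7 a higher one, with a median log2 difference of -0.091 (quartiles -0.16 and -0.041). Over all 11145 probe sets tested, 3859 were lower and 7281 higher, with a median of 0.051. With limma and Benjamini-Hochberg adjustment over all of them, 0 members were called at an adjusted p under 0.05 (background 0%), and the smallest adjusted p of a member was 0.169. At an unadjusted p under 0.05, 11 members were lower (9.02% of all probe sets) and 1 higher (12.4%), and at an adjusted p under 0.2, 9 were lower (6.93%) and 1 higher (8.94%). The 3 arrays of each phase did not overlap for 6 members that were lower (5.08%) and 1 that was higher (12.6%). In a bulk sample, fewer cells of a type and less RNA per cell cannot be told apart.

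All 5 complexes had a median below 0 in this contrast. Complex I, the entry point for NADH electrons, had a median of -0.051 with 26 of 31 lower, complex II -0.20 with 4 of 5, complex III -0.11 with 5 of 5, complex IV -0.16 with 9 of 10 and complex V -0.098 with 14 of 14. Without L paralogs the medians were -0.050, -0.14, -0.10, -0.10 and -0.092 in the same order of complexes, and 44 of 51 genes were lower with a median of -0.075. The 14 L paralogs were all lower, with a median of -0.21, and they made up 8 of the 11 members lower at an unadjusted p under 0.05.

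**Figure D1:**
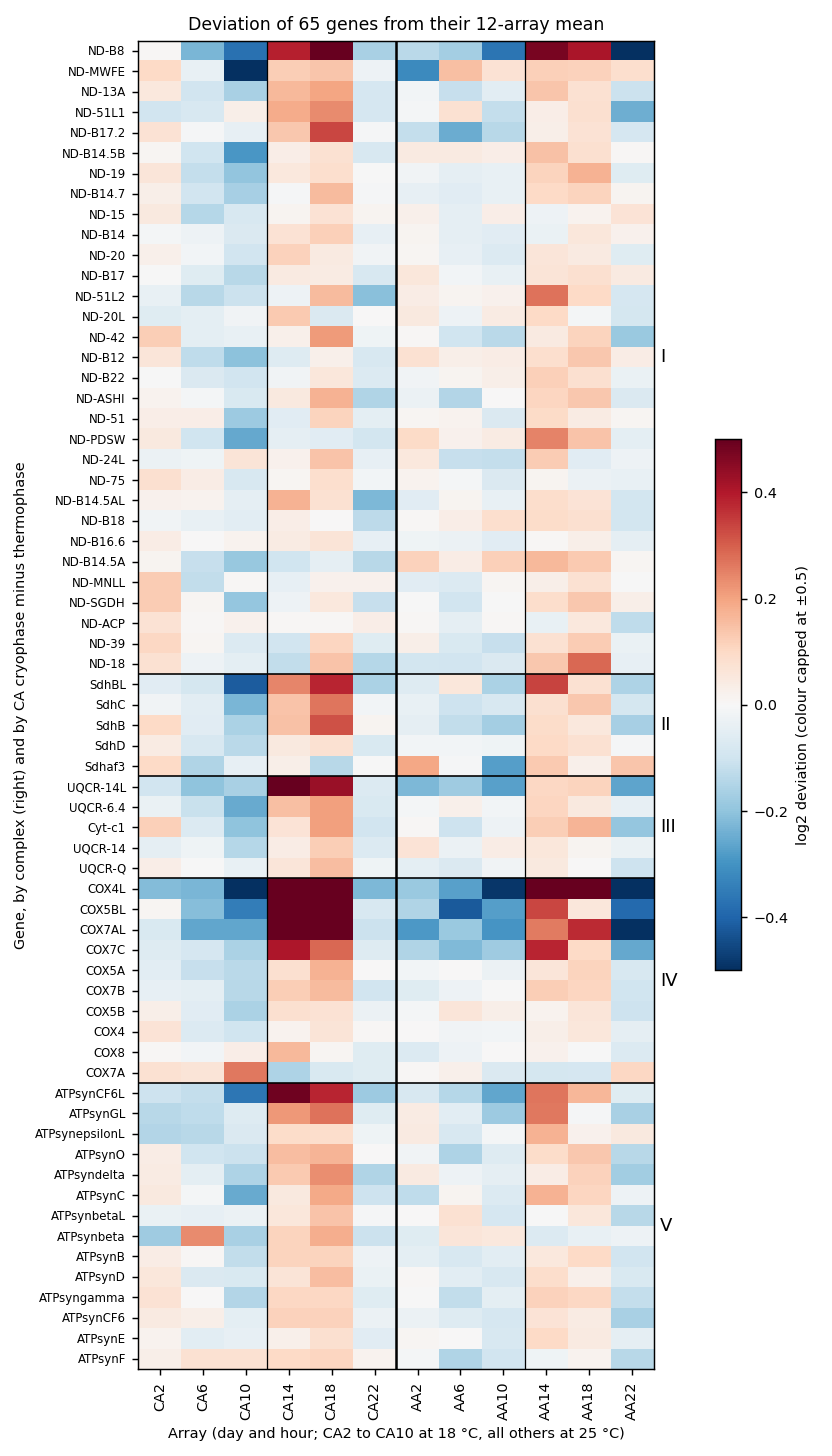
Colour gives the log2 deviation of each of 65 genes (rows, by complex I to V from top to bottom and within a complex by the CA cryophase minus thermophase difference) from its mean over the 12 arrays (columns, in time order for CA and then AA), with colours capped at 0.5. CA18 is the highest array for 31 genes and CA10 the lowest for 30, while the median deviation is 0.029 on CA2 and -0.060 on CA22. Of all 11145 probe sets tested, CA18 is the highest array for 1577 and the lowest for 3023. CA10 is the highest for 2684 and the lowest for 1262.

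The arrays of a phase did not act alike. CA18 was the highest of the 12 arrays for 31 of the 65 members, CA14 for 11, AA14 for 10 and AA18 for 6, and CA10 was the lowest for 30. Of all 11145 probe sets, CA18 was the highest array for 1577 and the lowest for 3023. CA10 was the highest for 2684 and the lowest for 1262. CA14, AA14 and AA18 were the highest for 473, 589 and 223 of them. On CA2, taken at 18 °C, 42 members lay above their 12-array mean, against 13 on CA6 and 8 on CA10. On CA22, taken at 25 °C, 9 lay above the mean, against 53 on CA14 and 60 on CA18. Of all 11145 probe sets, 5616, 5298 and 7055 lay above their mean on CA2, CA6 and CA10. The counts were 4273, 3574 and 5765 on CA14, CA18 and CA22. On the AA day 28, 20 and 17 members were above the mean on AA2, AA6 and AA10, and 58, 58 and 13 on AA14, AA18 and AA22. Over all probe sets the counts were 5884, 6104 and 6350, and 5037, 4886 and 6557, in the same order. High arrays for the members on both days were thus those at hours 14 and 18, and the late arrays CA22 and AA22 lay with the low ones.

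**Figure D2:**
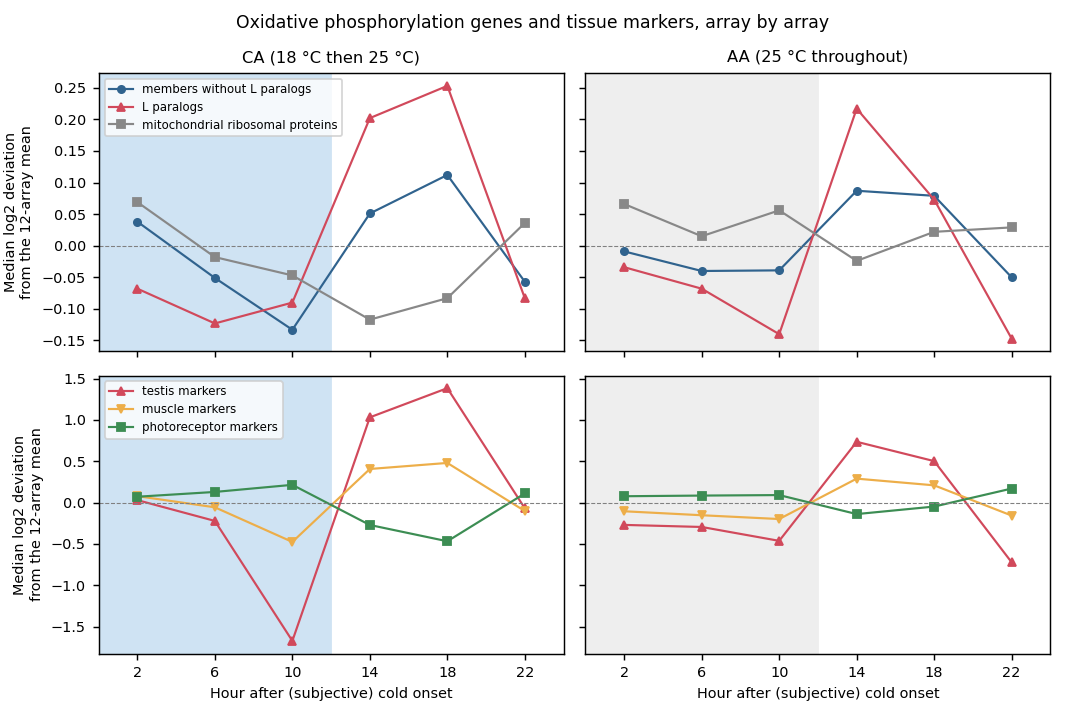
The upper panels plot the median log2 deviation of 51 members without L paralogs, 14 L paralogs and 63 mitochondrial ribosomal proteins on each array against the hour, and the lower panels that of testis, muscle and photoreceptor markers (shading, cold or subjectively cold 12 h). Members and body markers are high on CA14, CA18, AA14 and AA18, and the testis list reaches -1.67 on CA10 and 1.39 on CA18.

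The body-tissue markers were high and low on the same arrays (testis list at 0.50 to 1.39 on CA14, CA18, AA14 and AA18). With an index of 62 muscle, gut, male accessory gland and testis markers as a covariate, the median member difference between CA cryophase and CA thermophase was 0.017, with 20 of 65 members lower and 45 higher, and 0 passed the threshold. With the muscle markers alone it was 0.016. Without CA10 and CA18 the median was -0.018, with 42 of 65 lower. The part of the body tissues in the members' difference was not tested.

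Leaving out single arrays moved the medians and, for 1 array, the calls. The median was -0.134 without CA22, -0.121 without CA2, -0.050 without CA10 and -0.046 without CA18. Without CA22, 11 members were lower at an adjusted p under 0.05 by limma (8.46% of all probe sets) and 0 were higher (9.29%), 7 of them L paralogs (UQCR-14L, ATPsynCF6L, COX5BL, COX4L, COX7AL, SdhBL and ATPsynGL) and 4 others (UQCR-6.4, SdhC, COX5A and COX7C). Without any other CA array, 0 members passed. COX7C read low, with a mean of 4.67 over the 12 arrays, where the 20th percentiles of the arrays lay between 4.14 and 4.19. With all arrays its CA difference was -0.31, and with the body-tissue index as a covariate -0.056 ± 0.134.

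Among the core subunits of complex I, ND-75, which holds iron-sulfur clusters on the NADH side, gave 9.03, 8.98 and 8.86 in CA cryophase (CA2, CA6, CA10) and 8.95, 9.03 and 8.93 in CA thermophase (CA14, CA18, CA22). The log2 difference was -0.014 ± 0.058 (SE, n = 3 arrays each, limma adjusted p = 0.89). ND-51, the subunit that binds NADH, gave 9.03, 9.03 and 8.81 in CA cryophase and 8.94, 9.11 and 8.95 in CA thermophase, a difference of -0.041 ± 0.073. For both genes the phases overlapped, and the lowest array was CA10. The lowest difference in complex I was that of ND-B8, an accessory subunit, with 5.72, 5.49 and 5.34 in CA cryophase and 6.11, 6.37 and 5.55 in CA thermophase (-0.49 ± 0.25), and the highest that of ND-18, another accessory subunit, at 0.042 ± 0.092. ND-B8 was also high on AA14 and AA18, at 6.19 and 6.13, against 5.22 on AA22.

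In complex II, which also serves the citric acid cycle, SdhB, the iron-sulfur subunit, gave 10.75, 10.59 and 10.49 in CA cryophase and 10.79, 10.97 and 10.66 in CA thermophase, a difference of -0.20 ± 0.097 (adjusted p = 0.256). SdhC, a membrane anchor, gave 9.18, 9.14 and 8.97 in CA cryophase and 9.34, 9.46 and 9.18 in CA thermophase, a difference of -0.23 ± 0.086 (adjusted p = 0.177). Every cryophase array of SdhC lay below every thermophase array, with CA2 and CA22 almost level. The paralog SdhBL was lowest in the complex (-0.34 ± 0.16) and Sdhaf3, an assembly factor, highest (0.007 ± 0.11).

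In complex III, Cyt-c1, the subunit that passes electrons to cytochrome c, gave 10.22, 10.04 and 9.90 in CA cryophase and 10.17, 10.31 and 10.01 in CA thermophase (-0.11 ± 0.11). UQCR-6.4, a small subunit, differed by -0.23 ± 0.082 (adjusted p = 0.176) and UQCR-Q, another, by -0.068 ± 0.060, the highest value in the complex. With the index as a covariate the difference of UQCR-6.4 was -0.052 ± 0.068.

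Of the 7 members with a higher mean in CA cryophase, the one with the widest difference was in complex IV. COX7A, a small nuclear-encoded subunit, gave 10.82, 10.81 and 11.01 in CA cryophase and 10.59, 10.67 and 10.69 in CA thermophase. It was the 1 member with all cryophase arrays above all thermophase arrays, and it had the smallest p of all 65 in this contrast (0.23 ± 0.073, limma adjusted p = 0.169). CA10, the lowest array for 30 members, was the highest for COX7A, as it was for 2684 of all 11145 probe sets. On the AA day COX7A gave 10.76, 10.77 and 10.67 in subjective cryophase and 10.66, 10.66 and 10.85 in subjective thermophase, a difference of 0.010 ± 0.073, and the difference between the days' contrasts was 0.22 ± 0.10 (limma adjusted p = 0.933). With the body-tissue index as a covariate the CA difference was 0.11 ± 0.077, and without CA10 it was 0.17. COX4, which sits beside the catalytic core, gave 11.90, 11.76 and 11.73 in CA cryophase and 11.85, 11.90 and 11.84 in CA thermophase (-0.061 ± 0.057). COX5A, a subunit on the matrix side, gave 10.79, 10.73 and 10.71 in CA cryophase and 10.93, 11.02 and 10.85 in CA thermophase, without overlap (-0.19 ± 0.064, adjusted p = 0.171), and its difference with the index was -0.087 ± 0.071.

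**Figure D3:**
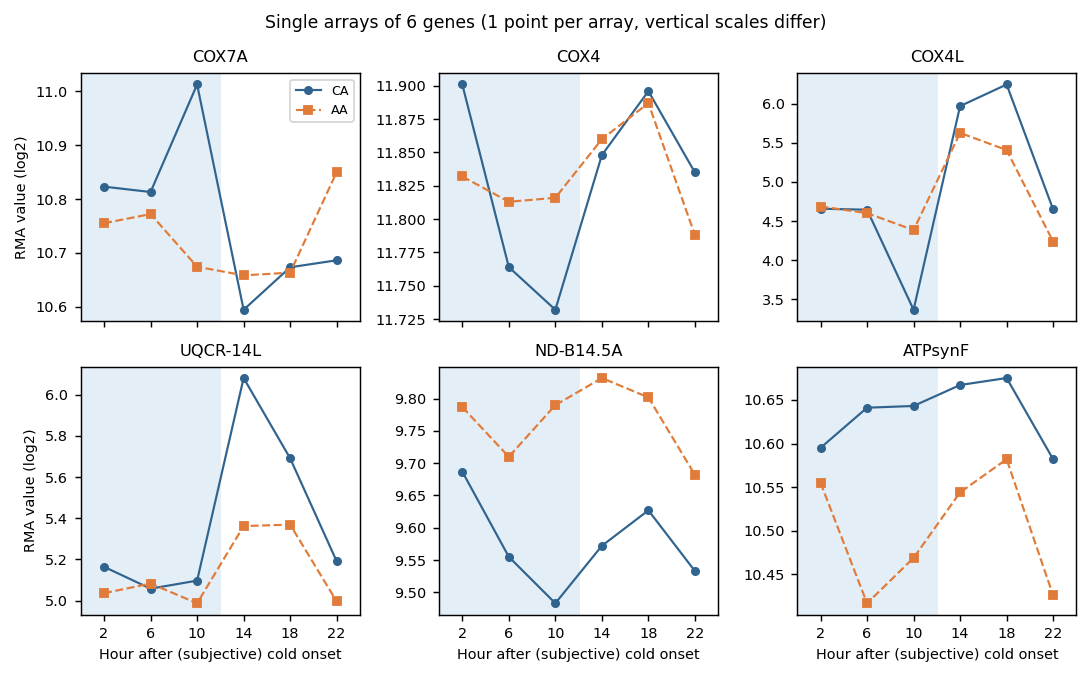
Points are the RMA values (log2, vertical axis, scales differ) of single arrays against the hour for COX7A, COX4, COX4L, UQCR-14L, ND-B14.5A and ATPsynF, with CA as solid lines, AA as dashed lines and the cold or subjectively cold 12 h shaded. COX7A is highest on CA10, COX4L spans 3.37 to 6.24 on CA arrays, and ND-B14.5A is lower on CA than on AA at every hour.

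In complex V all 14 members had lower means in CA cryophase. ATPsynbeta, the catalytic subunit, gave 7.60, 8.01 and 7.61 in CA cryophase and 7.89, 7.96 and 7.67 in CA thermophase, with a difference of -0.097 ± 0.11 and overlapping arrays. The alpha subunit, named blw and so outside the rule, differed by -0.071 ± 0.091. The lowest member was the paralog ATPsynCF6L (-0.42 ± 0.15) and the highest ATPsynF, a subunit of the membrane part (-0.015 ± 0.060). ATPsynC, the subunit of the membrane ring, had a second probe set: the CA differences were -0.12 and -0.10, and the AA differences -0.15 and 0.026. The pair of probe sets for ND-MNLL, an accessory subunit of complex I, gave CA differences of 0.002 and 0.021.

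The L paralogs held the widest spread over the arrays, though not all of them. The median range over 12 arrays was 0.48 for the 14 L paralogs and 0.31 for the other 51 genes, a difference that was not tested, and 11 of the 14 lay above the median of the others. Over all 11145 probe sets the median range was 0.365. ND-20L, at 0.22, had the narrowest range among the paralogs, while ND-B8 reached 1.15 without being one. COX4L had the widest range of all members, 2.88. It gave 4.66, 4.64 and 3.37 in CA cryophase and 5.97, 6.24 and 4.65 in CA thermophase, and on the AA day 4.69, 4.60 and 4.38 in subjective cryophase and 5.63, 5.41 and 4.24 in subjective thermophase. CA14, CA18, AA14 and AA18 stood above all other arrays and CA10 below them. The CA10 value of 3.37 lay under the 20th percentile of that array, 4.19. The CA difference was -1.40 ± 0.47 (adjusted p = 0.17), against -0.19 ± 0.14 with the body-tissue index as a covariate.

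UQCR-14L gave 5.16, 5.06 and 5.10 in CA cryophase and 6.08, 5.69 and 5.19 in CA thermophase, without overlap (-0.55 ± 0.18, limma adjusted p = 0.169), and -0.29 ± 0.18 with the index. COX5BL gave 5.52, 5.30 and 5.16 in CA cryophase and 6.03, 6.46 and 5.43 in CA thermophase, with CA2 above CA22 (-0.65 ± 0.23). COX7AL gave 4.69, 4.50 and 4.50 in CA cryophase and 5.45, 5.43 and 4.65 in CA thermophase (-0.62 ± 0.24). In each of these genes CA14 and CA18 were the high arrays and CA22 was near the cryophase arrays. ATPsynGL differed by -0.25 ± 0.11, ATPsynepsilonL by -0.17 ± 0.061 and ATPsynbetaL by -0.099 ± 0.067, each without overlap.

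Paralogs of complex I were flatter. ND-51L1 differed by -0.16 ± 0.10, ND-51L2 by -0.068 ± 0.099, ND-20L by -0.064 ± 0.066, ND-24L by -0.036 ± 0.074 and ND-B14.5AL by -0.011 ± 0.092. The 3 paralogs that did not pass the filter were not tested, and SdhAL missed it narrowly, with 6 of 12 values above the 20th percentile. COX6AL2 was listed at 2.40 to 2.87 in CA cryophase and 2.80 to 3.58 in CA thermophase, SdhAL at 4.03 to 4.24 in CA cryophase and 4.13 to 4.56 in CA thermophase, and SdhCL at 3.55 to 3.81 in CA cryophase and 3.71 to 4.46 in CA thermophase, with overlapping phases in each.

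Of the 14 L paralogs past the filter, 11 were set beside the member named without the L. ATPsynepsilonL copies sun, a gene outside the naming rule, and was not set beside it. In 10 of the 11 pairs the paralog had the wider log2 difference between the phases of CA, by margins that went untested. The differences were -1.40 for COX4L and -0.061 for COX4, -0.65 for COX5BL and -0.10 for COX5B, -0.62 for COX7AL and 0.23 for COX7A, -0.55 for UQCR-14L and -0.10 for UQCR-14, -0.42 for ATPsynCF6L and -0.058 for ATPsynCF6, and -0.34 for SdhBL and -0.20 for SdhB. The remaining pairs were closer: -0.099 for ATPsynbetaL and -0.097 for ATPsynbeta, -0.16 for ND-51L1 and -0.068 for ND-51L2 beside -0.041 for ND-51, -0.011 for ND-B14.5AL and -0.002 for ND-B14.5A, and -0.064 for ND-20L beside -0.076 for ND-20, the 1 pair in which the paralog was narrower. The testis list had a median of -1.48 in this contrast, with 13 of 13 lower, and the muscle list -0.42, with 13 of 14 lower. The part of testis or muscle RNA in the paralogs' values was not tested. Paralogs also read lower on the scale than the genes they copy. Means over the 12 arrays were 4.87 for COX4L and 11.83 for COX4, and 5.51 for COX5BL and 11.8 for COX5B. They were 5.26 for UQCR-14L and 9.54 for UQCR-14, and closer for ATPsynbetaL (7.48) and ATPsynbeta (7.78). The 20th percentiles of the arrays lay between 4.14 and 4.19. The part of level in the pairs was not tested.

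**Figure D4:**
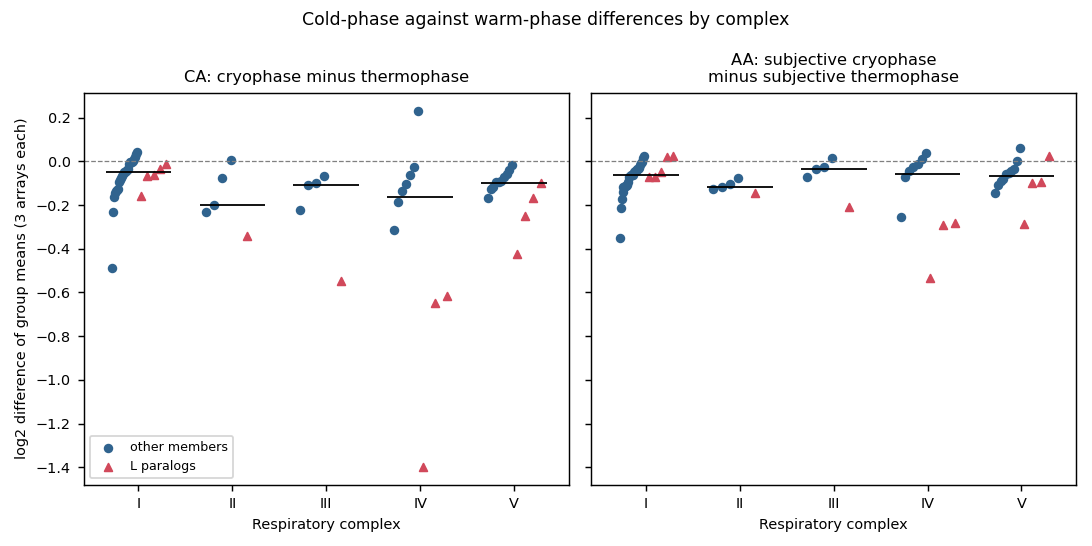
Each point is the log2 difference of 1 gene (cryophase minus thermophase in CA on the left, subjective cryophase minus subjective thermophase in AA on the right, means of 3 arrays each) by respiratory complex, with triangles for L paralogs, circles for other members and bars for the median of a complex. COX7A at 0.23 is the point highest above the rest in CA, and COX4L at -1.40 in CA and -0.53 in AA the lowest.

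The same hours of the AA day, without a temperature step, showed the same direction. Of the 65 members, 56 had a lower mean in AA subjective cryophase than in AA subjective thermophase and 9 a higher one, with a median of -0.067, while all 11145 probe sets had a median of 0.017. Both days' contrasts use different arrays, and 51 of 65 members (78.5%) were lower in both, against 23.0% of all probe sets. Agreement gene by gene, beyond the counts of each day (58 lower in CA and 56 in AA), was not tested. With limma, 0 members passed an adjusted p of 0.05 (background 0%). At an unadjusted p under 0.05, 1 member was lower (1.03% of all probe sets) and 0 higher (1.9%), and the groups did not overlap for 6 members that were lower (3.71%) and 0 that were higher (6.64%). With the body-tissue index as a covariate the median was -0.019 with 46 of 65 lower. The testis list had a median of -0.53 in this contrast, with 13 of 13 lower, and its part in the members' values was not tested.

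The member with the smallest p in AA was ND-18. It gave 7.08, 7.08 and 7.10 in AA subjective cryophase and 7.30, 7.46 and 7.13 in AA subjective thermophase, without overlap, although AA10 and AA22 were close (-0.21 ± 0.092, limma adjusted p = 0.984). In CA it gave 7.24, 7.15 and 7.12 in cryophase and 7.05, 7.31 and 7.03 in thermophase. ND-B17.2, an accessory subunit of complex I, differed by -0.17 ± 0.083 in AA and by -0.15 ± 0.083 in CA. ATPsynCF6L differed by -0.29 ± 0.15 in AA. ND-B14.7, ND-SGDH and SdhD also had no overlap on this day, with AA22 the array nearest to the subjective cryophase in each.

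The difference between both contrasts asks whether the phases differed more with the temperature cycle than at the same hours without it. Its median over members was -0.029, with 45 of 65 lower, beside 0.023 over all probe sets. The direction turned to 0.048 with 47 of 65 higher with the body-tissue index as a covariate, to 0.034 with 45 higher with muscle markers, to 0.051 with 48 higher with testis markers, and to 0.034 with 47 higher without CA10 and CA18. With limma, 0 members passed (background 0%), and 0 had an unadjusted p under 0.05 in either direction (1.03% of all probe sets lower and 2.57% higher). After COX7A (0.22 ± 0.10) the smallest p belonged to ND-18 (0.25 ± 0.13) and UQCR-6.4 (-0.19 ± 0.12), all with an adjusted p of 0.933 by limma. With time of day as a block, which pairs CA and AA arrays by hour, 3 members were lower (4.54% of all probe sets) and 1 higher (5.89%) at an unadjusted p under 0.05. These were COX7AL, COX4L and UQCR-14L, all lower, and ND-18, and the smallest adjusted p of a member was 0.409.

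Comparisons of the CA day with the AA day at matched hours gave small differences of either sign. CA cryophase and AA subjective cryophase, which differ in temperature and in day, had a median member difference of -0.009, with 37 lower and 28 higher (all probe sets 0.001). By limma 0 members passed (background 0%), while at an unadjusted p under 0.05, 2 were lower (2.95%) and 1 higher (3.06%). Groups did not overlap for 6 members that were lower (6.33%) and 6 that were higher (7.1%). CA thermophase and AA subjective thermophase, both at 25 °C, had a median of 0.026, with 24 lower and 41 higher (all probe sets -0.025). Here too 0 passed by limma (background 0%), with 1 lower (4.25%) and 1 higher (1.82%) at an unadjusted p under 0.05, and 3 below (6.77%) and 0 above (2.82%) without overlap. With the body-tissue index as a covariate these medians were 0.020 and -0.011.

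The time-of-day block raised the counts at an unadjusted p under 0.05, and no member passed after adjustment. Between CA cryophase and AA subjective cryophase, 3 members were lower (3.94% of all probe sets) and 2 higher (4.85%). Between CA thermophase and AA subjective thermophase, 3 were lower (7.62%) and 7 higher (6.63%), with a smallest adjusted p of 0.146 by limma. The 7 higher were COX7AL, UQCR-14L, COX5BL, COX4L, SdhB, ND-B17.2 and ND-51L1, of which 5 are L paralogs, and the 3 lower were ND-B14.5A, ND-18 and ND-PDSW. COX7AL differed by 0.38 ± 0.068 in this fit. All genes of the testis list were higher in the same contrast, and the part of testis RNA in the paralogs' values was not tested.

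A few complex I subunits kept the same sign through the whole day. ND-B14.5A, an accessory subunit, gave 9.69, 9.56 and 9.48 in CA cryophase and 9.79, 9.71 and 9.79 in AA subjective cryophase, a difference of -0.187 ± 0.066 (limma adjusted p = 0.743). It gave 9.57, 9.63 and 9.53 in CA thermophase and 9.83, 9.80 and 9.68 in AA subjective thermophase, again without overlap (-0.195 ± 0.066, limma adjusted p = 0.747). The gene was lower on the CA array at all 6 matched hours, and its difference between phases was -0.002 within CA and -0.010 within AA. ND-B14.5B, also an accessory subunit, gave 9.85, 9.73 and 9.54 in CA cryophase and 9.88, 9.88 and 9.87 in AA subjective cryophase (-0.17 ± 0.077, limma adjusted p = 0.828), and differed by -0.068 ± 0.077 between CA thermophase and AA subjective thermophase.

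In the other direction, ATPsynF gave 10.60, 10.64 and 10.64 in CA cryophase and 10.56, 10.42 and 10.47 in AA subjective cryophase (0.15 ± 0.060, limma adjusted p = 0.811), and 10.67, 10.68 and 10.58 in CA thermophase and 10.54, 10.58 and 10.43 in AA subjective thermophase (0.12 ± 0.060). ND-B17.2 differed by 0.18 ± 0.083 in the cold 12 h and by 0.15 ± 0.083 in the warm 12 h. UQCR-14L was the member higher at an unadjusted p under 0.05 in the warm 12 h (0.41 ± 0.18, limma adjusted p = 0.747). Its CA14 value of 6.08 was the highest of the 12, and the testis list, with a median of 0.62 in this contrast, was higher in 13 of 13 genes.

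Counted by hour, 6 members were lower on the CA array at all 6 matched hours (4.78% of all probe sets) and 7 were higher at all 6 (3%). Those lower were all of complex I: ND-B12, ND-B14.5A, ND-B14.5B, ND-B17, ND-B18 and ND-PDSW. Those higher were ND-B16.6 and ND-B17.2 of complex I, SdhB, COX7C, COX8, ATPsynCF6 and ATPsynF. These 13 were named after their values were seen. Day and temperature history cannot be told apart here.

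**Figure D5:**
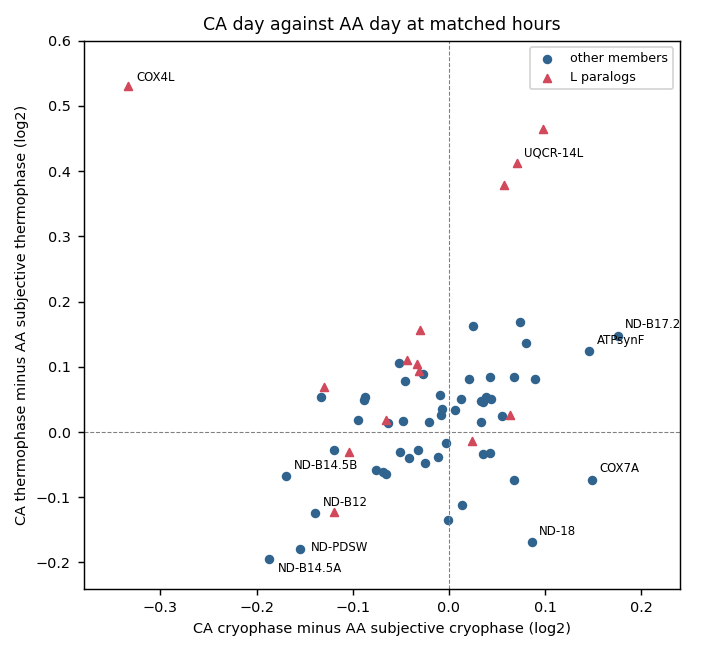
Each point is 1 of 65 genes, with the log2 difference CA cryophase minus AA subjective cryophase on the horizontal axis and CA thermophase minus AA subjective thermophase on the vertical axis (triangles, L paralogs; circles, other members). ND-B14.5A lies at the lower left with -0.187 and -0.195, ATPsynF and ND-B17.2 at the right, and COX4L at the upper left with -0.33 and 0.53.

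Rhythms over the day were shallow in the median, for members and for all probe sets alike. A cosine of 24 h fitted to each day had a median amplitude over members of 0.082 in CA and 0.068 in AA on the log2 scale. Over all 11145 probe sets the median amplitudes were 0.104 in CA and 0.069 in AA. In CA, 0 members passed an adjusted p of 0.05 by limma (0.368% of all probe sets) and 5 had an unadjusted p under 0.05 (19.3%). These were UQCR-14L (amplitude 0.45 ± 0.11, peak at CA15.9, adjusted p = 0.185), COX5BL, COX7AL, COX5A and ATPsynepsilonL, and UQCR-14L was the 1 member at an adjusted p under 0.2 (7.42%). In AA, 0 passed (0%) and 0 had an unadjusted p under 0.05 (3.52%). For the difference of both days 0 passed (0%) and 0 had an unadjusted p under 0.05 (3.71%). The fitted peak fell between hours 12 and 24 for 62 of 65 members in CA and for 58 in AA. Of all 11145 probe sets this held for 3851 in CA and 4470 in AA. The peak hours themselves were not tested. With the index as a covariate, UQCR-14L passed in CA (0.33 ± 0.063, adjusted p = 0.0457, where 1.72% of all probe sets passed), and without CA22, COX5BL passed (0.68 ± 0.12, adjusted p = 0.0374, where 6.56% passed).

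Other lists of energy metabolism are given beside all probe sets, of which 34.6% were lower in CA cryophase than in CA thermophase. In CA cryophase against CA thermophase, by limma, 0 genes passed an adjusted p of 0.05 in any of the following lists. Of 12 enzymes of the citric acid cycle and pyruvate dehydrogenase, 8 were lower (median -0.069). The widest difference there was that of mAcon2, an aconitase, at -0.82 ± 0.295. Of 9 glycolytic enzymes, 6 were lower (median -0.11), and Pgi, which interconverts glucose and fructose phosphates, differed by -0.27 ± 0.072 (adjusted p = 0.169). Of 10 respiratory subunits and assembly factors outside the naming rule, 7 were lower (median -0.046), among them RFeSP, the Rieske protein of complex III, at -0.12 ± 0.082 and ox, a small subunit of complex III, at -0.19 ± 0.069.

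Of the 12 mitochondrial carriers and porin, 7 were lower (median -0.022). Of 63 mitochondrial ribosomal proteins, which translate the subunits encoded in mitochondrial DNA, 47 were higher in CA cryophase (median 0.067), near the 7281 of 11145 over all probe sets with their median of 0.051, and 48 in AA subjective cryophase (median 0.039), where all probe sets had 6487 higher and a median of 0.017. Of 7 regulators of mitochondrial biogenesis, 4 were higher (median 0.006), with ewg, the fly relative of nuclear respiratory factor, at 0.59 ± 0.17 (adjusted p = 0.169). Against the matched AA hours, 9 of 9 glycolytic enzymes were higher in CA cryophase and 9 of 9 in CA thermophase, with a median of 0.12 in each, while the 65 members had medians of -0.009 and 0.026. Of all 11145 probe sets, 22.1% were higher in both contrasts, and 0 passed by limma in either. Day and temperature history cannot be told apart in these contrasts.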

How the data were processed

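The authors prepared the expression values with RMA from Affymetrix Drosophila Genome 1 arrays (version: not stated in the labels or methods), and the deposited values were read as log2 from their range. The number of arrays limits the precision. With 1 array per time point, p-values measure only the spread between single arrays, which may be technical or may come from the time of day. Of 14010 probe sets, 12443 had 1 gene name, 327 several and 1196 none, names were updated through a reference gene table, and 44 controls were left out. Values of 11145 probe sets were fitted with limma 3.58.1 in R 4.3.3, as 4 groups of 3 arrays (8 residual degrees of freedom) or as a 24-h cosine per day (6), with Benjamini-Hochberg adjustment over all of them. The models were run on simulated data with noise drawn independently for each probe set and array. Shifts shared by many probe sets of an array were not simulated. Members and lists were chosen with earlier results of these data known. Named genes were the 3 smallest p per contrast, the extremes of each complex in CA, all L paralogs and the core subunits, with SdhC, COX7C and other genes singled out by count or list named after their values were seen. A probe set can bind a near copy of its gene, which was not tested. Alternatives were other filters and priors, a common array median, averaged probe sets, marker covariates, time of day as a block, each array left out and the F24 score of the study. The testis covariate, and the block for the difference of contrasts, were chosen after seeing the data. Figures were drawn with matplotlib 3.10.9 under Python 3.11.15.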

Additional observations from a re-analysis of the deposited data

How the results depend on the processing

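No member was called in the 5 group contrasts with all probe sets kept, with the filter set on the mean, with a prior that was trended and robust, with array medians made equal, with probe sets averaged per gene, with the muscle, body-tissue or testis covariate, or without CA10 and CA18. The same count of 0 was found for the 3 contrasts that the time-of-day block allows, for 18 °C against all 9 arrays at 25 °C, and for the 3 cosine tests with all probe sets kept, the other prior or equal medians. The exceptions were the fit without CA22 (11 members in CA cryophase against CA thermophase, and 1 for the CA cosine), the body-tissue index (1 for the CA cosine), and an adjusted p under 0.2 (10 members in that contrast and 1 for the CA cosine). The F24 score at a false discovery rate of 0.2 selected 0 members on either day, and over all probe sets it selected 0 in CA and 4 in AA. The median member difference of CA cryophase and CA thermophase was 0.016 with muscle markers, 0.017 with the body-tissue index and 0.032 with testis markers as a covariate, against -0.091 without. For the difference of both days' contrasts it was 0.051 with testis markers, against -0.029. The cause was not tested.

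With each array left out in turn, between 0 and 11 members were called in CA cryophase against CA thermophase, between 0 and 1 for the CA cosine, and 0 in the other tests. The median ranged from -0.134 to -0.046 for CA cryophase against CA thermophase, from -0.106 to -0.034 for the AA phases, from -0.080 to 0.012 for the difference, from -0.056 to 0.038 for CA cryophase against AA subjective cryophase and from -0.009 to 0.070 for CA thermophase against AA subjective thermophase. It changed sign for the difference without AA22, for CA cryophase against AA subjective cryophase without CA10 or AA2, and for CA thermophase against AA subjective thermophase without CA18 or AA22, while none of these medians had a called member. Median amplitudes ranged from 0.071 to 0.134 in CA, from 0.056 to 0.098 in AA and from 0.057 to 0.137 for their difference. With CA and AA arrays paired by hour through the time-of-day block, members at an unadjusted p under 0.05 numbered 4 for the difference of contrasts, 5 for CA cryophase against AA subjective cryophase and 10 for CA thermophase against AA subjective thermophase, against 0, 3 and 2 without it. The pooled SD between arrays of a group of the median over members was 0.076, near the medians of the contrasts within a day and wider than those of the other 3 contrasts.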
